A study of Homo sapiens with 10 samples.

Results

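The effect of 1 h of treatment on the mRNA of MOLT-4 cells was read from 4 of the 10 arrays of a time course: the 2 arrays of the 1 h group and the 2 of the 0 h group. MOLT-4 is an established human T-cell acute lymphoblastic leukaemia line. MABL, an antibody against CD47, was given for 0.5, 1, 3 or 6 h or read at 0 h, with 2 arrays for each time. Per the labels, the 1 h group and the 0 h group both carry 10 ug/mL MABL and 50 ug/mL GAM, an abbreviation that the labels do not spell out, so the groups differ by time alone as labelled. The submitters used 0 h as their control, and no array of untreated cells kept in culture for 1 h was analysed here. Effects of MABL, of GAM, of handling and of an hour in culture therefore cannot be told apart. The labels do not say whether replicate arrays come from separate cultures, so a p-value reflects a spread between arrays that may be technical. That spread was estimated from all 10 arrays of the 5 times, and 2 arrays a group limit the precision.

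CD47 is a cell surface receptor for thrombospondin that also restrains phagocytes through SIRP alpha, and some antibodies against it trigger death of T cells. Within the first hour after a stimulus, cells usually switch on immediate early genes, whose transcription needs no new protein. ID1, an early target of BMP and other signals, encodes a helix-loop-helix protein without a DNA-binding region that ties up the E proteins that drive T-cell development.

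A level is the square root of the deposited score, read as log2 expression, and a change is the 1 h mean minus the 0 h mean on that scale. All fold sizes depend on this reading. Tests were made on 4276 of 22215 probe sets, those with a level of 5 or more on at least 2 of the 10 arrays, and adjusted p-values are Benjamini-Hochberg values from limma over these probe sets. A gene stands for its brightest tested probe set, which gave 2819 genes. Each change was tested as deposited and again after shifting the arrays to equal medians, and called at an adjusted p under 0.05.

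The cells carried T-lineage markers: 13 of 16 markers on the arrays, among them CD1A, CD3D, CD3E, LCK, PTCRA and RAG1, reached a level of 5 on an array of the 2 groups. The summed level of the 16 was 113.7 to 114 at 0 h and 110.5 to 111.2 at 1 h. CD2, CD7 and CD28, which many T cells carry, did not reach a level of 5. Of markers of other lineages, IGHM (1 of 11 B-cell markers), AIF1 (1 of 12 myeloid markers), and COL1A1 and PECAM1 (2 of 14 fibroblast, epithelial and endothelial markers) reached it, and 0 of 8 erythroid and platelet markers did. The summed level of the 11 B-cell markers was 32.95 to 33.01 at 0 h and 33.95 to 34.39 at 1 h, and that of the 14 fibroblast, epithelial and endothelial markers was 44.9 to 45.14 and 45.4 to 46.9. The erythroid and platelet sum was 19.98 to 19.99 at 0 h and 20.01 to 20.3 at 1 h, while the ranges of the myeloid sum overlapped (37.7 to 37.89 and 37.64 to 38.12). MOLT-4 is a cell line, and most of these markers of other lineages stayed below a level of 5. Whether cells of another lineage were present was not tested. In bulk samples, fewer cells of a type and less RNA per cell cannot be told apart. The level of 18S ribosomal RNA moved with time: its probe sets stood at 8.41 and 9.65 on the 0 h arrays and at 11.13 and 10.23 on the 1 h arrays. Those for RNA spiked in by the laboratory stood at 9.80 and 10.20 against 10.39 and 10.11. The excess of 3′ over 5′ signal, a measure of RNA quality, was 0.335 and 0.382 at 0 h and 0.198 and 0.248 at 1 h for GAPDH, without overlap, and 1.47 and 1.72 against 1.66 and 1.62 for ACTB. Its part in the results was not tested. With 18S as a covariate, 87 probe sets were called, 3 of them higher, in place of the 1213 given below, and the median SE of a change widened from 0.148 to 0.229.

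The change at 1 h was one-sided in size. As deposited, 1213 probe sets were called (28.4%), 177 higher (4.14%) and 1036 lower (24.2%). By gene, 752 of 2819 were called (26.7%), 114 higher (4.04%) and 638 lower (22.6%). The fall was wide rather than shared by every gene: the median change over genes was -0.012, 25% of genes lay below -0.48 and 25% above 0.15, and the lowest 5% of genes lay below -1.53. A change of more than 1 was seen downward in 362 genes and upward in 3, namely ID1, IER2 and FOLR1. FOLR1, the folate receptor alpha gene, named after its values were seen, stood at 8.74 and 10.04 at 0 h and at 11.79 and 10.63 at 1 h and was not called (1.82, SE 0.629, adjusted p = 0.0652). Of the arrays, leaving out replicate 1 of 0 h gave 656 called probe sets and leaving out replicate 2 gave 1011. Leaving out replicate 1 of 1 h gave 955 and replicate 2 gave 674. In the same order 47, 118, 70 and 70 of these were higher.

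The scaling decides how many genes are called higher. The median level of the tested probe sets was 6.96 ± 0.026 (SD, n = 2) at 0 h and 6.67 ± 0.073 at 1 h, a difference of -0.29, although the median of the changes was near 0. Equal array medians moved the median change of all probe sets from -0.025 to 0.26. The calls then numbered 1389 higher (32.5%) and 834 lower (19.5%), so the share of higher calls went from 14.6% to 62.5%. When the arrays were instead shifted to equal medians of their deviations from the mean of the 10 arrays, 342 were called higher and 1019 lower. No gene was called higher under one scaling and lower under the other. This could hardly come out otherwise, since equal medians raise every change at 1 h by the same small amount. Under both the deposited values and equal medians, 114 genes were higher (4.04%) and 505 lower (17.9%). These are the genes described below unless said otherwise. All 114 genes called higher as deposited kept the call, since every change was raised. Equal medians are therefore no further check on the higher calls, and narrowed only the lower calls, from 638 to 505.

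**Figure D1:**
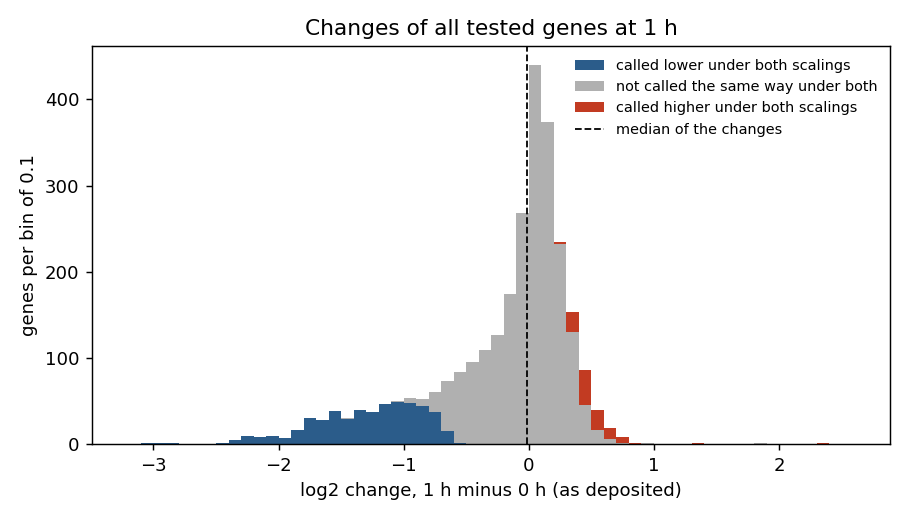
Number of genes (y axis, bins of 0.1) by log2 change at 1 h against 0 h as deposited (x axis), for 2819 genes with 1 tested probe set each. The 505 genes called lower under both scalings (blue) form a broad shoulder to the left, the 114 called higher under both (red) lie close to the centre, and the dashed line marks the median change of -0.012.

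The gene with the largest called rise was ID1. Its level was 5.93 and 5.93 on the 0 h arrays and 8.30 and 8.23 on the 1 h arrays, so the groups lay far apart and the replicates close together. The change was 2.34 (SE 0.0921, adjusted p = 2.38e-05, limma), a 5.06-fold rise, and it stayed called without each of the 4 arrays (adjusted p up to 0.00116) and with 18S as a covariate (2.35, adjusted p = 0.00418). ID1 was at 6.06 and 5.98 at 0.5 h and at 6.05 and 5.98 at 3 h, so that 1 h alone among the 5 times was high. Against 0.5 h, ID1 was 1 of 2 probe sets called at 1 h among 4276 (0.0468%; 2.25, adjusted p = 3.21e-05, limma). The other was ATP1B3, the beta 3 subunit of the sodium-potassium pump, which was lower at 1 h than at 0.5 h by 0.89 (adjusted p = 0.0453) and lower than at 0 h by 1.03 (SE 0.101, adjusted p = 0.000786). With equal medians ATP1B3 was no longer called against 0.5 h.

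IER2, an immediate early gene that encodes a nuclear protein, came next among the called genes. It stood at 6.81 and 7.46 at 0 h and at 8.68 and 8.32 at 1 h. The groups did not overlap, although the 0 h arrays differed from each other by more than the 1 h arrays did. The change was 1.37 (SE 0.264, adjusted p = 0.00618, limma). It remained called without each array (adjusted p up to 0.0483), but not with all 22215 probe sets tested (adjusted p = 0.0614) or with 18S as a covariate (1.23, adjusted p = 0.167). At the other times IER2 stood at 7.61 and 7.45 (0.5 h), at 7.58 and 6.95 (3 h) and at 7.966 and 8.165 (6 h), so that the 6 h arrays were again above both 0 h arrays.

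The promoters of ID1 and IER2 are shown because these 2 genes had the largest called rises. Each line gives the 250 bases before the annotated start of transcription, 5′ to 3′ on the gene's strand, from RefSeq on GRCh38.p14, at chr20:31605039-31605288 (plus strand) for ID1 and chr19:13150161-13150410 (plus strand) for IER2. Capitals mark matches, on either strand, to the motifs searched, which overlap in the TATA stretch of ID1.
ID1: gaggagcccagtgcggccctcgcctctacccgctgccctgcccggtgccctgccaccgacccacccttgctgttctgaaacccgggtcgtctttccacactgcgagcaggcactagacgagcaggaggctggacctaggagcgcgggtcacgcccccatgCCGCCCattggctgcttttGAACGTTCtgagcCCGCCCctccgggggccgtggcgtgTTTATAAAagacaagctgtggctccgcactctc
IER2: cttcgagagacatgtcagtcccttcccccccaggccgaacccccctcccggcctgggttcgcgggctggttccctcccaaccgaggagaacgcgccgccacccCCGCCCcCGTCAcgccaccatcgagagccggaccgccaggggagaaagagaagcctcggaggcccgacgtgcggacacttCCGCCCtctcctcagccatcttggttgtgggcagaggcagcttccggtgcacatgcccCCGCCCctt
In ID1, TATAAA lay at bases -31 to -26 before the start, and its reverse complement at -33 to -28. The heat shock element motif GAANNTTC lay at -71 to -64, and GGGCGG, the SP1 motif, lay on the reverse strand at -90 to -85 and at -58 to -53. In IER2, the short CRE motif TGACG lay on the reverse strand at -140 to -136, and GGGCGG, also on the reverse strand, at -147 to -142, -67 to -62 and -9 to -4. A match is a description of letters and not a site of binding.

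EIF5A, a translation factor that carries the hypusine modification, was the third highest. Its brightest probe set stood at 9.65 and 9.47 at 0 h and at 10.45 and 10.47 at 1 h, without overlap. The change was 0.90 (SE 0.101, adjusted p = 0.000904, limma). Its other 2 tested probe sets changed by 1.39 and 0.80 and were called too, and EIF5A kept its call with 18S as a covariate (0.98, adjusted p = 0.0417).

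The remaining rises were small. Over the 114 genes the median change was 0.48. MRPL52 (0.81), FAT1 (0.76), DCXR (0.74) and YRDC (0.74) rose by more than the 5 genes given next, but each lost the call with some array left out. MRPL57, a mitochondrial ribosomal protein, stood at 9.36 and 9.72 at 0 h and at 10.28 and 10.26 at 1 h (0.73, SE 0.126, adjusted p = 0.00397). MRPL20, of the same ribosome, rose by 0.63 (adjusted p = 0.00519). UROD, an enzyme of haem synthesis, rose by 0.70 (adjusted p = 0.00386), CIRBP, an RNA-binding protein known from cold shock, by 0.72 (adjusted p = 0.00572) and HTRA2, a mitochondrial protease released in cell death, by 0.60 (adjusted p = 0.00536). These 5 were called without each array, and none of them with 18S as a covariate, where their changes were between 0.53 and 0.80.

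COX5B, a subunit of cytochrome c oxidase, was read by 4 tested probe sets, which all rose: by 0.62 (SE 0.141, adjusted p = 0.0128), 0.53, 0.66 and 0.97. The brightest stayed called without 0 h replicate 2 (adjusted p = 0.013). Its adjusted p was 0.0897 on leaving out the other 0 h array, and 0.0536 and 0.0662 on leaving out 1 h replicates 1 and 2. Of 632 genes with 2 or more tested probe sets, 6 had all of them called higher under both scalings (0.949%), namely COX5B, EIF5A, FTL, NDUFB2, MT1X and CDS2, and 100 had all called lower (15.8%). FTL encodes ferritin light chain, NDUFB2 a subunit of complex I, MT1X a metallothionein and CDS2 an enzyme of phospholipid synthesis. Of these 6, EIF5A stayed called without each array. NDUFB2, MT1X and CDS2 were called in none of the 4 leave-one-out fits (adjusted p of 0.0579 to 0.224), and FTL only in that without 1 h replicate 1 (adjusted p = 0.043, and 0.0571 to 0.207 in the others).

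**Figure D2:**
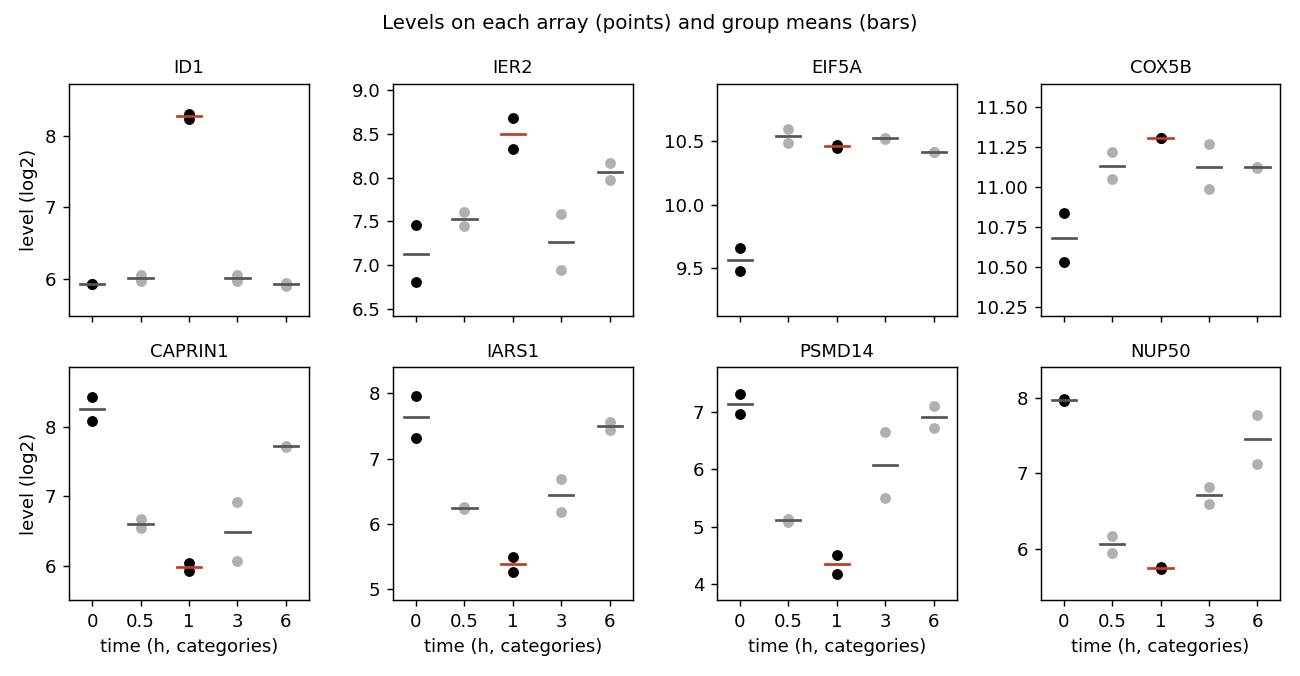
Level (log2, y axis) of 8 genes on each array (points) with group means (bars) by time of treatment from 0 to 6 h (x axis, as categories), with the 0 h and 1 h arrays in black. ID1 was high at 1 h (8.30 and 8.23) and between 5.90 and 6.06 at every other time, whereas CAPRIN1, IARS1, PSMD14 and NUP50 were low at 1 h and closer to their 0 h levels at 6 h.

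The falls were larger than the rises. ABCD3, a peroxisomal fatty acid transporter, stood at 8.27 on both 0 h arrays and at 5.65 and 6.12 at 1 h (-2.39, SE 0.225, adjusted p = 0.000762, limma). NUP50, a nucleoporin, stood at 7.99 and 7.96 at 0 h and at 5.74 and 5.77 at 1 h (-2.22, SE 0.199, adjusted p = 0.000717). The groups lay apart in both genes, and the 1 h replicates were close for NUP50 but not for ABCD3. Both genes kept their calls without each array and with 18S as a covariate (adjusted p = 0.0343 for each, limma).

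CAPRIN1, an RNA-binding protein of stress granules, stood at 8.43 and 8.09 at 0 h and at 6.04 and 5.93 at 1 h (-2.28, SE 0.247, adjusted p = 0.000851), and its other probe set fell by 1.95. IARS1, which charges tRNA with isoleucine, stood at 7.96 and 7.32 at 0 h and at 5.495 and 5.268 at 1 h (-2.26, SE 0.231, adjusted p = 0.000792). AZIN1, an inhibitor of antizyme in polyamine metabolism, fell by 2.45 (SE 0.261, adjusted p = 0.000806), and its other probe set by 2.20. All 3 stayed called without each array and with 18S as a covariate (adjusted p of 0.0463, 0.0417 and 0.0463).

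Some of the largest falls ended below the level of 5 and their size depends on the low end of the scale. CMPK1, a nucleotide kinase, went from 7.21 and 7.38 to 4.65 and 3.81 (-3.06, SE 0.394, adjusted p = 0.00128), and changed by -2.30 when levels were held at no less than 5. PAK2, a kinase downstream of Rac and Cdc42, went from 7.84 and 7.18 to 4.68 and 4.52 (-2.91, with the floor -2.51), and PSMD14, the deubiquitinase of the proteasome lid, from 7.32 and 6.96 to 4.17 and 4.51 (-2.80, with the floor -2.14). For OGT, the enzyme that adds GlcNAc to nuclear proteins, the change was -2.31, and -0.16 and not called with the floor (adjusted p = 0.519). For CUL3, a scaffold of ubiquitin ligases, it was -2.30, and -0.30 with the floor.

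Several genes fell in all of their tested probe sets. ANP32E, a histone chaperone, fell by 2.17 and 1.56, TRAM1, which helps proteins into the endoplasmic reticulum, by 2.28 and 1.58, LYPLA1, a thioesterase that removes palmitate, by 2.15 and 1.43 and TMX1, an endoplasmic reticulum thioredoxin, by 2.13 and 1.95. SYNCRIP, an RNA-binding protein, was read by 4 probe sets that fell by 2.07, 1.03, 1.21 and 1.14. CD164, a sialomucin, fell by 2.01, 1.19 and 3.05. ANXA1, a membrane-binding annexin, went from 8.12 and 7.79 to 5.74 and 5.56 (-2.31, SE 0.331, adjusted p = 0.00179).

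Between the 2 brightest probe sets of the 632 genes, the change had the same sign in 502 and differed by less than 0.5 in 520, with a median absolute difference of 0.184. In 60 genes the probe sets spanned more than 1. SRSF6, a splicing factor chosen here after its values were seen, was the 1 gene with a probe set called each way: 0.40 in the brightest (adjusted p = 0.0232) and -2.31 in the other (adjusted p = 0.00113). With an array left out the first was called only without 0 h replicate 1 (adjusted p = 0.0483, and 0.0511 to 0.117 in the others).

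**Figure D3:**
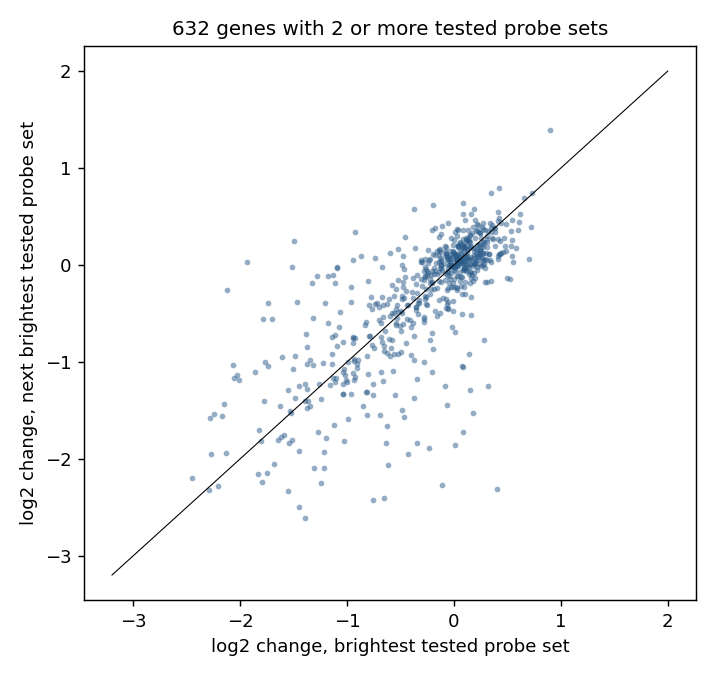
Log2 change at 1 h of the brightest tested probe set (x axis) against that of the next brightest (y axis), 1 point for each of 632 genes, with the line of equal change. The sign was the same in 502 genes, and the points below the line on the right include SRSF6, at 0.40 and -2.31.

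The genes were then read by function, as counts of list members called in each direction beside the shares over all genes (4.04% higher, 22.6% lower, median change -0.012). The lists describe and do not test, and a count near or below these shares says nothing particular of its list. Counts are as deposited, with those called under both scalings given where they differ. Equal medians move every change upward, and the median over all genes from -0.012 to 0.27, so that a list's median between -0.29 and 0 turns positive. The shares over all genes were then 32.8% higher and 17.9% lower, to be set beside each count with equal medians. Leave-one-out counts are given in the order 0 h replicate 1, 0 h replicate 2, 1 h replicate 1 and 1 h replicate 2. With all 22215 probe sets tested, CUL3, GNAQ, MRPL13, EXOSC8 and KARS1 lost calls that they kept in those fits (adjusted p of 0.0539, 0.0655, 0.056, 0.0597 and 0.052).

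Of the 206 called genes that the naming rule gave, 22 kept the call with 18S as a covariate. They were ID1, EIF5A, PSMD14, AZIN1, SEPTIN2, ABCD3, CAPRIN1, IARS1, NUP50, HSPA4, BAG2, HSPA9, CCT2, SRP9, SPCS3, RPL6, SRSF10, PSMA1, ATP5PB, RPA1, ASF1A and ATP1B3. ID1 and EIF5A were the higher genes among them.

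Signals at the cell surface and in the nucleus came first. Of 9 tested immediate early genes, IER2 was higher (4 genes with equal medians) and 2 were lower: KLF10, a zinc finger repressor (-1.51, adjusted p = 0.00193, with the floor of 5 -0.68), and MCL1, a short-lived survival protein of the BCL2 family (-0.997, adjusted p = 0.00218). FOS, EGR1 and JUN lay below the filter: FOS stood at 2.31 on both 0 h arrays and at 2.32 and 2.36 at 1 h. For EGR1 the brighter probe set stood at 2.36 and 2.34 at 0 h and at 2.43 and 2.40 at 1 h, and the 4 JUN probe sets reached no more than 3.38 at 1 h. These levels were not tested.

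Of the relatives of ID1, ID2 lay below the filter (3.18 and 3.22 at 0 h, 3.23 and 3.33 at 1 h in its brighter probe set). ID3 was not called as deposited (0.13, SE 0.0918, adjusted p = 0.352, limma). It was called higher with equal medians (0.42, adjusted p = 0.0254, limma) and with renewed quantile normalization (0.36, adjusted p = 0.0373, limma). TCF3, an E protein that ID proteins bind, was higher by 0.55 (adjusted p = 0.0446, limma). That call was lost in each of the 4 leave-one-out fits, at changes of 0.49 to 0.62. The list held 2 called members of 5, ID1 and TCF3, 3 with equal medians, and only ID1 in each leave-one-out fit. None of 2 tested genes of TGF-beta and BMP signalling was called, at changes of -0.083 and 0.034.

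Among T-lineage transcription factors, 5 of 12 were lower (4 under both scalings) and 1 higher, with a median of -0.49. GATA3 stood at 8.05 and 7.99 at 0 h and at 7.15 and 6.62 at 1 h (-1.13, SE 0.158, adjusted p = 0.00165), and was called without each array. MYB (-1.66), BCL11B (-1.36) and SATB1 (-1.22) were lower as well. MYB and BCL11B were called in no leave-one-out fit (adjusted p of 0.0528 to 0.14), and SATB1 only in that without 0 h replicate 2 (0.0463, and 0.0539 to 0.134 in the others). The lower calls of the list numbered 1, 3, 1 and 1 with an array left out, and the higher calls 0 in each. Of the T-cell receptor and its proximal kinases, 0 of 15 were lower (2 without 1 h replicate 1), 6 were higher with equal medians and, as deposited, only SIT1, an adaptor, was higher at 0.38 (adjusted p of 0.094 to 0.173 with an array left out, and a change of 0 with the floor of 5), with a median of -0.0043.

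CD47 itself was read by 4 probe sets, 2 of them tested. The brightest stood at 8.98 and 8.94 at 0 h and at 8.603 and 8.329 at 1 h, a change of -0.49 that was not called with equal medians (-0.21, adjusted p = 0.177) and was called with an array left out only without 1 h replicate 1 (adjusted p = 0.0266, and 0.0784 to 0.153 in the others). The other went from 8.75 and 8.43 to 7.80 and 7.57. On both probe sets the 1 h arrays were below the 0 h arrays, where the array medians differed by -0.29 as well. The share of all probe sets without overlap is not given here, so this adds little to the call. Of its 5 tested binding and signalling partners, itself included, 4 were lower (3 under both scalings), where 22.6% of all genes were, with a median of -1.11. GNAI3 (-1.785, adjusted p = 0.00606, limma) and UBQLN2 (-1.11, adjusted p = 0.0148, limma) each lost the call with some array left out. BNIP3, a mitochondrial death protein, fell by 1.51 (adjusted p = 0.00165) and went from 4.88 and 4.47 to 3.01 and 3.32. It lay below a level of 5 throughout these arrays, so that with the floor of 5 its change was 0 and it was not called. Among G protein subunits, GNAQ stood at 6.46 and 5.43 at 0 h and at 3.619 and 4.399 at 1 h (-1.93, SE 0.371, adjusted p = 0.00599, with the floor -0.94).

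MYC stood at 10.44 and 10.33 at 0 h and at 10.07 and 10.15 at 1 h. The change of -0.28 was not called (adjusted p = 0.0958) and became 0.01 with equal medians. DDIT4, an inhibitor of mTORC1, stood at 6.88 and 6.90 at 0 h, at 5.735 and 5.388 at 0.5 h and at 6.60 and 6.32 at 1 h, and then at 9.60 and 9.51 at 3 h and 10.31 and 10.28 at 6 h. Its 1 h arrays thus lay between those of 0 h and 0.5 h. The change from 0 h to 1 h was -0.43 (SE 0.142, adjusted p = 0.0557), and was called without 1 h replicate 1 (adjusted p = 0.0455). HIF1A stood at 3.43 and 3.37 at 0 h and at 3.36 and 3.40 at 1 h, and VEGFA at no more than 3.03 in any probe set at 1 h, both below the filter.

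Of 6 interferon-stimulated genes, 3 were higher, IFI6 (0.74), IFITM1 (0.64) and ISG15 (0.44), and IRF1, a transcription factor of the pathway, was lower (-0.68). The higher count was 0, 2, 1 and 1 with an array left out, and the lower count 0, 1, 0 and 0. Without 0 h replicate 1 the adjusted p was 0.0705 for IFI6, 0.0826 for IFITM1, 0.119 for ISG15 and 0.155 for IRF1, and ISG15 was called in none of these fits (0.0976 to 0.154).

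Higher calls were most numerous, among the lists, in the machinery of oxidative energy. Of 63 tested subunits of the respiratory chain and ATP synthase, 14 were higher and 5 lower (3 under both scalings), with a median of 0.22. NDUFB2, at 10.45 and 10.44 against 10.86 and 10.87, and NDUFA13, at 9.84 and 9.90 against 10.29 and 10.29, were higher by 0.42 each (adjusted p = 0.0208 and 0.00928), with close replicates and no overlap. The higher count fell to 0, 10, 4 and 2 with an array left out, and the lower count was 3, 6, 5 and 3. NDUFB2 was then called in no fit (adjusted p of 0.0738 to 0.0873), and NDUFA13 in all but that without 0 h replicate 1 (0.0597). With equal medians 42 were higher, where 32.8% of all genes were. ATP5PB, of the stalk of ATP synthase, fell by 1.41 (SE 0.143, adjusted p = 0.000792), from 10.20 and 10.01 to 8.76 and 8.63, and CYCS, cytochrome c, by 1.22.

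Ribosomal proteins were called in both directions. Over all genes 22.6% were lower, and 17.9% under both scalings, and the lower shares of the lists given next lay near or below these. Of 53 cytosolic ribosomal proteins, 5 were higher and 12 lower (6 under both scalings), and with equal medians 27 were higher and 6 lower. RPL6 stood at 12.27 and 11.97 at 0 h and at 10.59 and 10.35 at 1 h (-1.65, SE 0.175, adjusted p = 0.0008). RPL7 fell by 1.27 and RPS6 by 0.99. The higher count was 0, 2, 1 and 0 with an array left out, and the lower 9, 10, 10 and 9. The list of mitochondrial ribosomal proteins had 41 tested genes and is not complete: MRPL52 (0.81) and MRPL57 (0.73), both called higher, are outside it. Of the 41, 3 were higher, MRPL20 among them, and 10 lower (7 under both scalings), led by MRPL13 (-1.83) and MRPL3 (-1.67). The higher count was 2, 2, 1 and 2 with an array left out, and the lower 7, 8, 7 and 8. In ribosome assembly, 7 of 29 genes were lower (4 under both scalings), among them EXOSC8, of the RNA exosome (-1.99), and NPM1, nucleophosmin (-1.62). That count was 5, 4, 3 and 4 with an array left out.

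Translation factors were lower in 20 of 41, all 20 under both scalings, with a median of -0.62. The count was 14, 19, 19 and 14 with an array left out. EIF5A, EIF3K and EIF3F were higher, and the higher count was 2, 2, 2 and 1. EIF4G2, a relative of the cap-binding scaffold, stood at 8.95 and 8.96 at 0 h and at 7.69 and 7.39 at 1 h (-1.42, SE 0.195, adjusted p = 0.0016). EIF2S1, the alpha subunit of eIF2, fell by 1.24 (adjusted p = 0.00143). EEF1A1, which delivers aminoacyl-tRNA and is among the brightest genes on the arrays, went from 14 and 13.98 to 13.04 and 13.15 (-0.90, adjusted p = 0.00108). Of 13 aminoacyl-tRNA synthetases 4 were lower, IARS1, NARS1 (-1.86), KARS1 and GARS1, and 0 higher.

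Among genes of RNA handling, regulators of splicing come first. Of 43 HNRNP and SR splicing proteins, 22 were lower (18 under both scalings) and 2 higher, with a median of -0.48. These counts take the brightest probe set of each gene, and for SRSF6, as given above, the brightest was called higher and the other lower. SRSF10 stood at 6.32 and 6.44 at 0 h and at 4.58 and 4.82 at 1 h (-1.68, SE 0.154, adjusted p = 0.000717). TRA2B fell by 1.39 and HNRNPK by 1.03. The lower count was 14, 18, 18 and 11 with an array left out, and the higher 2, 1, 1 and 1. Of 42 core spliceosome genes, 6 were lower (4 under both scalings) and 1 higher, with a median of 0.069. These included SF3B1 (-1.80, with the floor of 5 -1.125), which binds the branch site, and PRPF8 (-0.82), at the catalytic centre. The lower count was 3, 5, 5 and 3 and the higher 0, 0, 0 and 1. Of 17 genes of mRNA decay and granules, 8 were lower (7 under both scalings), with CAPRIN1, G3BP1 (-1.50) and G3BP2 (-1.39), which build stress granules together.

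Nuclear pore and transport genes were lower in 13 of 25 (12 under both scalings) and higher in 2, with a median of -0.94. XPOT, which exports tRNA, went from 5.63 and 5.10 to 3.59 and 3.59 (-1.77, adjusted p = 0.00196), and was not called with the floor of 5 (-0.36, adjusted p = 0.128). TNPO3, which imports SR proteins, fell by 1.11. RAN, the GTPase of the system, was lower by 0.55 as deposited only. The lower count was 7, 9, 9 and 5 with an array left out, and the higher 1, 0, 0 and 0.

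Protein folding genes were called only lower as deposited, where 4.04% of all genes were called higher. With equal medians 1 chaperonin gene, 3 heat shock genes and 4 genes of the endoplasmic reticulum list were called higher, where 32.8% of all genes were. Of 12 chaperonin and prefoldin subunits, 7 were lower under both scalings, with a median of -1.01, and 6, 7, 6 and 6 with an array left out. Of 21 heat shock proteins, 11 were lower (9 under both scalings) and 0 higher. HSPA4, an exchange factor for HSP70, stood at 7.30 and 7.11 at 0 h and at 5.72 and 5.70 at 1 h (-1.49, SE 0.107, adjusted p = 0.000559), and BAG2, another cochaperone, at 6.40 and 6.32 against 4.79 and 4.86 (-1.54, SE 0.124, adjusted p = 0.000715). Both kept their calls with 18S as a covariate (adjusted p = 0.0343 for each). HSPA9 (-1.84) and HSPD1 (-1.54), the mitochondrial HSP70 and HSP60, were lower too. Of 15 endoplasmic reticulum chaperones and stress genes, 4 were lower (3 under both scalings), CANX, calnexin, most (-1.74), and 2, 2, 4 and 2 with an array left out.

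Proteasome genes fell in 13 of 37 (12 under both scalings) and rose in 2, with a median of -0.0013. The lower count was 7, 11, 10 and 9 with an array left out, and the higher count 0 in each. PSMA1 stood at 9.54 and 9.15 at 0 h and at 7.81 and 7.62 at 1 h (-1.63, SE 0.16, adjusted p = 0.00079), and PSMA4 at 8.833 and 8.504 against 6.87 and 6.37 (-2.05). Of 26 ubiquitin, E2 and SUMO genes, 8 were lower (7 under both scalings), SKP1, a core part of SCF ligases, by 0.93.

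**Figure D4:**
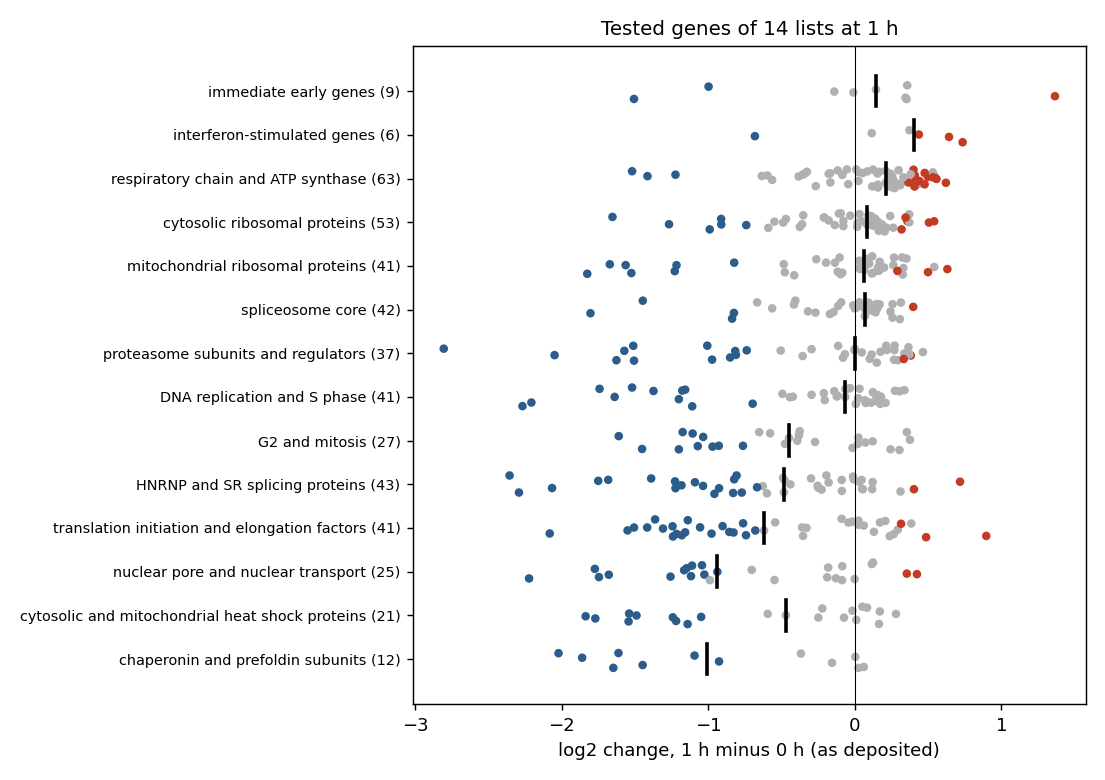
Log2 change at 1 h as deposited (x axis) of each tested gene (point) in 14 lists (y axis, number of tested genes in brackets), with the list's median as a bar. Blue points were called lower and red points higher under both scalings. The bars run from 0.41 for interferon-stimulated genes to -1.01 for chaperonin and prefoldin, with the respiratory chain at 0.22.

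Within 1 complex, the changes of subunits spanned a wide range. The 4 complexes in the plot of subunits, and the subunits named here, were picked after their values were seen. In the CCT ring, which folds actin and tubulin, 6 of 7 tested subunits were lower, by 0.93 to 2.02, and CCT7 was at 0.061. In the alpha ring of the proteasome, 4 of 6 were lower while PSMA7 was higher at 0.38 (as deposited and with equal medians) and PSMA5 was at -0.080. PSMA7 was called in none of the leave-one-out fits (adjusted p of 0.0768 to 0.174). Among the ATPases of its base 3 of 5 were lower, and 2, 3, 2 and 3 with an array left out. Of these PSMC6 lay below a level of 5 on these arrays, at a change of 0 with the floor in place of -0.97. In eIF3, 5 of 11 were lower, EIF3E most (-2.08), and EIF3K (0.49) and EIF3F (0.32) were higher. EIF3F was called in none of the leave-one-out fits (adjusted p of 0.127 to 0.136), and EIF3K in all but that without 1 h replicate 2 (0.0561). The range within eIF3 therefore spanned -2.08 to 0.49.

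**Figure D5:**
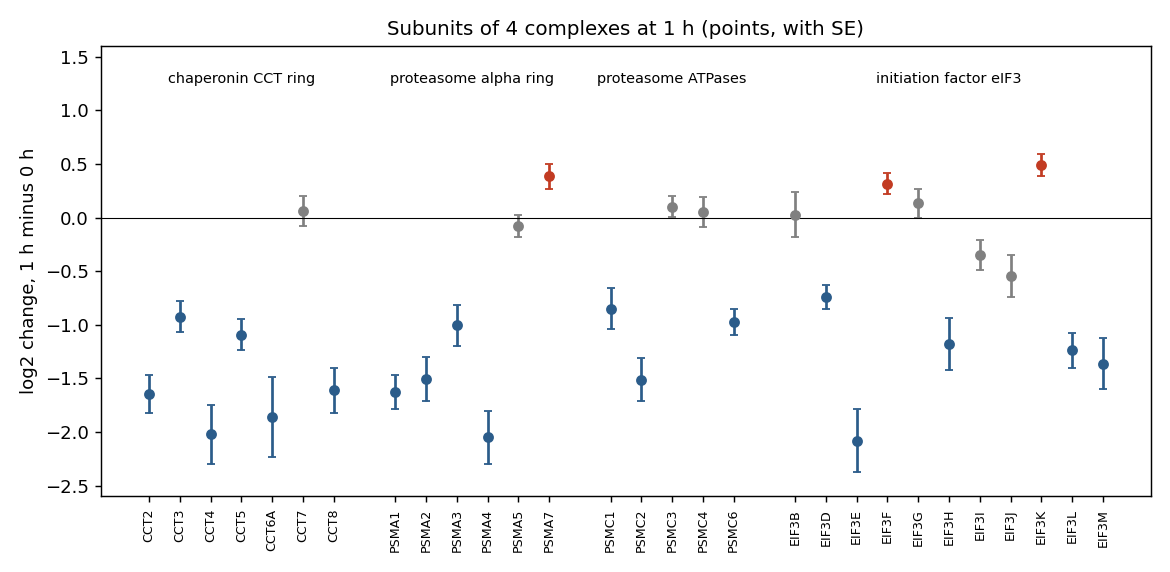
Log2 change at 1 h (y axis) with its SE for the tested subunits of 4 complexes (x axis), blue where lower and red where higher under both scalings. In the CCT ring 6 of 7 subunits lie between -0.93 and -2.02, with CCT7 at 0.061.

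Growth and division genes were lower in part. Of 41 DNA replication and S phase genes, 13 were lower (11 under both scalings), RRM1, of ribonucleotide reductase, most (-2.27). As deposited 0 were higher, and with equal medians 10 were, where 32.8% of all genes were. Of 27 G2 and mitosis genes, 13 were lower (10 under both scalings). CDK1, the mitotic kinase, stood at 8.34 and 7.83 at 0 h and at 6.63 and 6.64 at 1 h (-1.45, SE 0.182, adjusted p = 0.00121), and AURKA fell by 1.61. That count was 6, 7, 11 and 4 with an array left out. In DNA repair, 6 of 13 were lower (5 under both scalings), XRCC5, the Ku80 protein, by 2.03 and PARP1 by 0.77, with 3, 5, 5 and 3 on leaving out an array.

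Chromatin genes included 10 of 25 modifiers and remodellers that were lower, all under both scalings, with 4, 11, 9 and 7 on leaving out an array. Among them ARID1A, of the BAF remodeller, fell by 0.77. In the list of histones and associated proteins 9 of 20 were lower (5 under both scalings), and fewer whenever an array was left out. ASF1A (-1.998) and HMGB1 (-1.10) were among the lower genes, and neither of them is a histone. Of 26 genes of RNA polymerase II, Mediator and general factors, 6 were lower (5 under both scalings), CCNC (-1.63) and GTF2E1 (-1.55) included. That is near the share over all genes, 22.6% (17.9% under both scalings). With the floor of 5 GTF2E1 was not called (-0.35, adjusted p = 0.201).

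Membrane traffic genes were lower in 12 of 32 (10 under both scalings), with CLTC, clathrin heavy chain (-2.09), and TMED10, a cargo receptor (-2.13), and in 6 with 1 h replicate 2 left out. Of 21 genes of the signal recognition particle and translocation, 8 were lower (7 under both scalings), TRAM1 and SRP9 (-1.49) among them. On leaving out an array the count was 5, 7, 7 and 5. Of 34 actin, septin and tubulin genes, 10 were lower (6 under both scalings), SEPTIN2 most (-2.44, with a floor of 5 -1.18), and 5, 6, 7 and 5 on leaving out an array. Of 21 surface glycoproteins of T cells, 3 were lower (2 under both scalings) and 0 higher (6 with equal medians, where 32.8% of all genes were). TFRC, the transferrin receptor, stood at 8.54 and 8.70 at 0 h and at 7.64 and 7.35 at 1 h (-1.12, adjusted p = 0.00468).

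In metabolism, glycolysis had 3 of 21 genes lower (2 under both scalings), LDHB (-1.13) and LDHA (-0.79) among them, with a median of 0.057. Among 21 redox genes, 4 were lower, including CAT, catalase (-1.66), and PRDX3, a mitochondrial peroxiredoxin (-1.54), and 2 higher. With an array left out the higher count was 0, 1, 0 and 0. In the list of MAP kinases and phosphatases 4 of 14 were lower, among them PPP2CA, the catalytic subunit of PP2A (-1.61).

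The other times were set beside 1 h by values alone, since every comparison with 0 h uses the same 0 h arrays. Over the 505 genes lower at 1 h, the median change from 0 h was -0.91 at 0.5 h and -1.22 at 1 h, and the later times had -0.98 (3 h) and -0.52 (6 h). Over the 114 genes higher at 1 h, the median was 0.48 there and 0.23 to 0.27 at the other times. Since these genes were chosen at 1 h, a larger size there is part of the choice. CAPRIN1, at 5.98 on average at 1 h, stood at 6.61 at 0.5 h, 6.49 at 3 h and 7.72 at 6 h. PSMD14, at 4.34 at 1 h, was at 5.11, 6.07 and 6.92, and EIF5A, at 10.46 at 1 h, was at 10.54, 10.53 and 10.42. At 0.5 h both falling genes were thus already below their 0 h levels, and EIF5A above its own.

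The promoters of 104 of the 114 genes higher at 1 h, 425 of the 505 lower and 2392 of all 2819 genes were in the RefSeq table, over 250 bases before to 50 after the start. The median GC share was 64.7%, 63.7% and 65%, against 58.3% over 27305 promoters of the table. TATAAA was present in 9.62% of promoters of the higher genes, 5.65% of the lower, 5.43% of all tested and 12% of the table. The full CRE TGACGTCA was in 8.65%, 4%, 3.76% and 1.98%, and the CArG box in 5.77%, 1.65%, 1.63% and 1.29%. GGGCGG was in 74%, 70.6%, 71.2% and 44.6%, and the E-box CACGTG in 12.5%, 12.5%, 11.7% and 7.43%. The shorter CRE motif was in 38.5%, 39.3%, 37% and 25%, the AP-1 motif TGANTCA in 2.88%, 5.65%, 4.39% and 7.76%, GAANNTTC in 5.77%, 5.18%, 4.64% and 6.87% and the EGR motif GCGNGGGCG in 17.3%, 14.1%, 14.5% and 9.28%. Both strands were searched, the shorter CRE motif TGACG is contained in the full CRE, and the shares are descriptions with no test. The higher genes with TATAAA numbered 10, with the CRE 9 and with the CArG box 6.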

How the data were processed

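RNA of MOLT-4 cells was hybridised to Affymetrix Human Genome expression arrays. The authors deposited 1 score per probe set and array, computed by GCRMA (named in the submitters' processing notes: background correction by probe sequence, normalization between arrays, summary over probes). Its version and any later step are not stated in the labels. The scale is not stated: the square root of each deposited score was read as log2 expression. All 10 deposited sample columns were matched by their labels, and 0 were left unused.

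Of 22283 probe sets, 68 controls were set aside and 4276 of the other 22215 (19.2%) with a score of 25 or more on at least 2 of the 10 arrays were tested. Gene symbols are those of GEO's platform annotation, brought up to date with RefSeq. Of all probe sets 19071 had 1 symbol, 1043 several and 2169 none, and only those with 1 were named. The contrast of 1 h with 0 h was fitted with limma 3.58.1 in R 4.3.3 (lmFit, eBayes) to the 10 arrays, with the 5 times as groups and no other term (5 residual degrees of freedom, prior 3.06), and each adjusted p is a Benjamini-Hochberg value of limma. SEs are from the fit. The script was tested on simulated data.

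Members and gene lists were chosen with earlier results of these data known. Named were the 20 highest and 20 lowest genes called alike under both scalings, the 10 highest and 10 lowest genes with 2 or more agreeing probe sets, up to 5 called members of each list by the size of the test statistic, and CD47, HIF1A, FOS, EGR1, MYC, VEGFA, DDIT4, ID1, ID2, ID3, IER2 and JUN. Some of these are left out, and cell type markers are named from their own lists. Alternatives covered scaling, filter, scale, samples, covariates, replicate number and prior.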

Additional observations from a re-analysis of the deposited data

How the results depend on the processing

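Of the 1213 called probe sets (177 higher, 1036 lower), equal array medians gave 2223 (1389 higher), renewed quantile normalization 1897 (1027 higher, 870 lower) and, chosen after seeing the data, equal medians of the changes 342 higher and 1019 lower. A filter at a level of 7 gave 767 (617 lower), no filter 112 higher of 871, the 4 arrays alone 116 higher of 1113, 18S as a covariate 87 (3 higher, 84 lower, and 849 at an unadjusted p under 0.05) and the spike-in covariate 789 (53 higher). With log2 of the scores, untransformed scores, a floor at a level of 5 or a robust trended prior, between 1083 and 1288 were called. Leaving out 1 array gave 656 to 1011 calls, 47 to 118 higher and 604 to 893 lower, and with equal array medians, also chosen after seeing the data, 1067 to 1535, 450 to 781 higher and 617 to 754 lower. The cause of these moves was not tested. With the replicate block, that is replicate number as a factor, 1197 were called (158 higher), and 2126 with equal array medians. The numbers are not known to pair samples: deviations of the first replicates of 0 h and 1 h correlated at 0.0392 over probe sets. MYC turned from -0.28 to 0.011 with equal array medians, called under neither. Of 206 called genes named by the rule, 140 kept the call without each of the 4 arrays, 197 with the replicate block, 166 with the spike-in covariate, 141 without the filter and 22 with 18S. Precision is limited by 2 arrays a group, and probe sets below a level of 5 carry little signal over background.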
